A study of Mus musculus with 8 samples.

Results

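CHD4 occupancy was examined at 10 genes of smooth muscle contraction, Myocd, Srf, Acta2, Myh11, Mylk, Tagln, Cnn1, Cald1, Smtn and Lmod1, in mouse atria. A CHD4 site was an interval made by merging peaks of 4 ChIP-seq libraries that overlapped by at least 1 bp, and a site belonged to a gene when it overlapped the gene body plus 10 kb on each side. Of 121267 sites in all, 160 lay at these genes. Of the 160, 30 also lay within 10 kb of a neighbouring protein-coding gene, so a site is described here by position and not as a site of one gene's regulation.

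All mice carried Tbx5 alleles flanked by loxP sites (TBX5flox/flox), and an AAV9 vector was injected on postnatal day 2. The TBX5 KO group (n = 2 ChIP libraries) and the control group (n = 2 ChIP libraries) were taken from the titles and library names. The titles name no vector. AAV9:Nppa-Cre is taken here as the vector of the TBX5 KO group and AAV9:Nppa-EGFP as that of the control group. Nppa regulatory sequence is active in atrial cardiomyocytes, so Cre was directed at those cells, while the assayed tissue was the dissected right and left atria with the cell type given as mixed. The genotype and treatment fields state the reverse for each library, and the treatment text calls the Cre mice CHD4 KO. Directions are given by the titles and would turn round with those fields. Nothing in the labels tells whether a replicate is its own animal or a pool, so its spread may be technical. The age at collection is not given in the sources used here.

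CHD4 is the chromatin remodelling ATPase of the NuRD complex. Myocardin, the product of Myocd, is a coactivator found in smooth muscle and heart that binds serum response factor, the product of Srf. Serum response factor binds a short element called the CArG box, 2 C, a run of A or T, then 2 G, at many contractile genes. Smooth muscle cells use these genes to build actin and myosin filaments, and in the atria such cells lie mainly in vessel walls. In a bulk ChIP, a change in the number of cells of a type and a change in CHD4 per cell cannot be told apart. A CHD4 peak also does not measure expression.

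RefSeq promoter windows, 250 bases before to 50 bases after a transcript start, were at hand for 7 of the 10 genes, 8 windows in all (assembly GRCm38.p6, the assembly behind mm10). Of the 8 windows, 5 overlapped a site called in all 4 libraries and 3 overlapped no site of any library, against 41.8% and 52.0% of the 32851 windows of all genes. The 4 windows shown are from Srf and Acta2, where every library had a peak over the window, and from Cnn1 and Lmod1, where none had. They are written 5′ to 3′ on the strand of the gene, with CArG elements in capitals.
Srf, chr17:46556113-46556412, minus strand: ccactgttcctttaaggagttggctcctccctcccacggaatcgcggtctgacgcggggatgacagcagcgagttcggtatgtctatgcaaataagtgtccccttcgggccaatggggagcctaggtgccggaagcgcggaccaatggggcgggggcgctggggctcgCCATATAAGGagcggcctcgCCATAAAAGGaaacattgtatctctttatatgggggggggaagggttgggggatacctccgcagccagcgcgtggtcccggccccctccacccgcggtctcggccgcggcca
Acta2, chr19:34255324-34255623, minus strand: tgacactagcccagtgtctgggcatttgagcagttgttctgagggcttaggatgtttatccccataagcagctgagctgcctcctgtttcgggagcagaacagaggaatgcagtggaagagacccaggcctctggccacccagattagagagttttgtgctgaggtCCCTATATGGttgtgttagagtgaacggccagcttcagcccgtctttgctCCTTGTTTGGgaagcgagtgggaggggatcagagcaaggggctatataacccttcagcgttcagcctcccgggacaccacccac
Cnn1, chr9:22099003-22099302, plus strand: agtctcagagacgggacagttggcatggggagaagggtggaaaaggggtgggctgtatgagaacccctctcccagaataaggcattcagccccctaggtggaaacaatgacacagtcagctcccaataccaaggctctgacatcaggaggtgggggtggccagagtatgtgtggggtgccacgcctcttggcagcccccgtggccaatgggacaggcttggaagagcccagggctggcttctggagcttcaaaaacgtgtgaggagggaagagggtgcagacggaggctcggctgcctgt
Lmod1, chr1:135324563-135324862, plus strand: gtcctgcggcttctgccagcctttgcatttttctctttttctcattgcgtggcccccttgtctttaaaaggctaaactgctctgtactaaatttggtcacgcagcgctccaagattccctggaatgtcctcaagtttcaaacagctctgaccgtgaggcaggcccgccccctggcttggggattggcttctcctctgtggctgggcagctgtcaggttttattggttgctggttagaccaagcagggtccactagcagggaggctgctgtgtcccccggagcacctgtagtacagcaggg

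The Srf window held 2 CArG boxes, CCATATAAGG starting 82 bases and CCATAAAAGG starting 62 bases before the transcript start. The box reads the same on both strands as a pattern, and the 2 boxes did not overlap. A CArG box stood in 1.63% of all promoter windows. The Acta2 window held none in the strict form but 2 elements in which 1 of the inner letters is C or G, CCCTATATGG starting 84 bases and CCTTGTTTGG starting 34 bases before the start. Elements of either form stood in 9.98% of all windows. The other 6 windows, of Lmod1, Cnn1, Smtn and Mylk and both of Cald1, held neither form. Among all promoter windows, those with a strict CArG box overlapped a site called in all 4 libraries in 33.3% of cases and those without it in 41.9%. The matches describe letters in these windows, not bound sites.

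Of the sites at the 10 genes, 75 and 92 were called in TBX5 KO replicates 1 and 2, and 112 and 111 in control replicates 1 and 2. Both control libraries shared 89 sites, of which 55 had a call in every library, 11 had a call in a single TBX5 KO library and 23 had none in TBX5 KO. The 23, here termed control-only, made up 25.8% of the 89 (exact Clopper-Pearson 95% interval 17.1% to 36.2%, counting error only). The background was 24.9% of the 68137 sites called in both control libraries genome-wide, so the share at the smooth muscle genes was near the background. The 55 sites called in all 4 libraries were 61.8% of the 89 (50.9% to 71.9%), with a background of 55.8%. Only 1 site, at Cald1, had the opposite pattern (TBX5 KO-only), 1.67% of the 60 sites that the TBX5 KO libraries shared (exact 95% interval 0.0422% to 8.94%), with a background of 1.91%. Sites with a call in 1 library alone numbered 55, 34.4% of the 160, with a background of 36.3%. Of these, 25 belonged to a TBX5 KO library, 15.6% of the 160, with a background of 8.25% of all sites. TBX5 KO replicate 1 held 6 of the 25, 3.75% of the 160 against 3.24% of all sites, and replicate 2 held 19, 11.9% against 5.01%, so the share above background lay in 1 library.

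The 23 control-only sites were unevenly spread over the genes. Myocd held 9 of 20, and Cald1, which encodes the actin-binding protein caldesmon, held 8 of 21, so 17 of the 23 lay at these 2 genes. Mylk held 4 of 22, Myh11 held 1 of 2 and Smtn held 1 of 6. There were 0 control-only sites among the 3 of Srf, the 5 of Acta2, the 2 of Tagln, the 2 of Cnn1 and the 6 of Lmod1. The 8 genes other than Myocd and Cald1 held 48 of the 89 sites called in both control libraries. Of the 48, 6 were control-only (12.5%, exact 95% interval 4.73% to 25.2%). The background of 24.9% lay within that interval. This split was made after the counts were seen. It depended on the threshold, since at −log10 q of at least 5 the control-only sites were 4 of 10 at Myocd, 1 of 11 at Cald1 and 4 of 18 at Mylk. The background at that threshold was 29.1%.

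**Figure D1:**
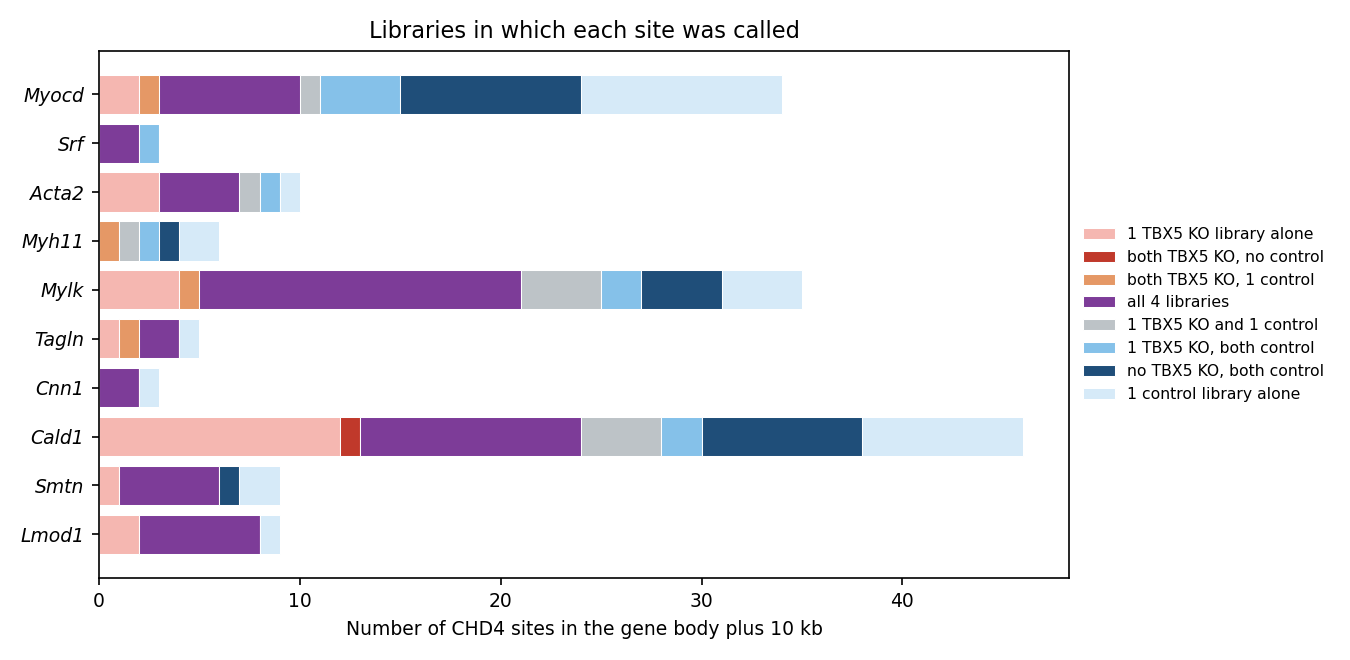
Number of CHD4 sites at each gene (horizontal axis), coloured by the libraries in which the site was called. Control-only sites, in dark blue, number 9 at Myocd and 8 at Cald1, while Srf, Acta2, Tagln, Cnn1 and Lmod1 show none.

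The share of control-only sites depended on the strength of a site in control. Sites called in both control libraries were divided into 10 equal classes by their mean percentile of −log10 p in the control lists, and 64.1% of the lowest class and 0.426% of the highest class were control-only genome-wide. With the share of its own class for each site, 23.4 control-only sites were expected at the 10 genes, against 23 observed. The expectation was 6.60 at Myocd against 9 observed, 7.12 at Cald1 against 8, and 5.01 at Mylk against 4. It was 1.41 at Acta2 and 0.781 at Lmod1, against 0 observed at each. The control-only sites had a median control percentile of 28.9 (range 2.92 to 70.5), and the sites called in all 4 libraries one of 75.8 (range 26.6 to 98.7).

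The peaks at the 10 genes together covered 77.5 and 99.5 kb in the TBX5 KO libraries and 142 and 132 kb in the control libraries. The means were 88.5 ± 15.5 kb in TBX5 KO and 137 ± 6.98 kb in control (SD, n = 2 each), a ratio of 0.646. The groups did not overlap, and the exact permutation p (two-sided) was 0.333, which is the lowest value possible with 2 libraries against 2. Over the whole lists the same ratio was 0.572, with 47.6 and 57.5 Mb in TBX5 KO and 97.0 and 86.7 Mb in control. The number of peaks at the 10 genes was 104 and 116 in TBX5 KO and 128 and 132 in control (ratio 0.846, exact permutation p = 0.333), against a ratio of 0.683 over the whole lists. When each list was reduced to its 61173 strongest peaks, the length of the shortest list, the order of the peak numbers turned round, with 104 and 99 in TBX5 KO and 79 and 84 in control. The covered length kept its order, with 77.5 and 93.5 kb in TBX5 KO and 117 and 111 kb in control.

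Gene by gene, 7 of the 10 regions had less peak coverage in both TBX5 KO libraries than in either control library, namely Myocd, Srf, Myh11, Mylk, Cnn1, Cald1 and Smtn. The background was 71.1% of the 16191 protein-coding gene regions with a peak. None of the 10 had more coverage in both TBX5 KO libraries, with a background of 1.69%. Coverage overlapped between the groups at Acta2, Tagln and Lmod1. The median ratio of TBX5 KO to control coverage was 0.713 over the 10 regions and 0.645 over all gene regions covered in control.

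**Figure D2:**
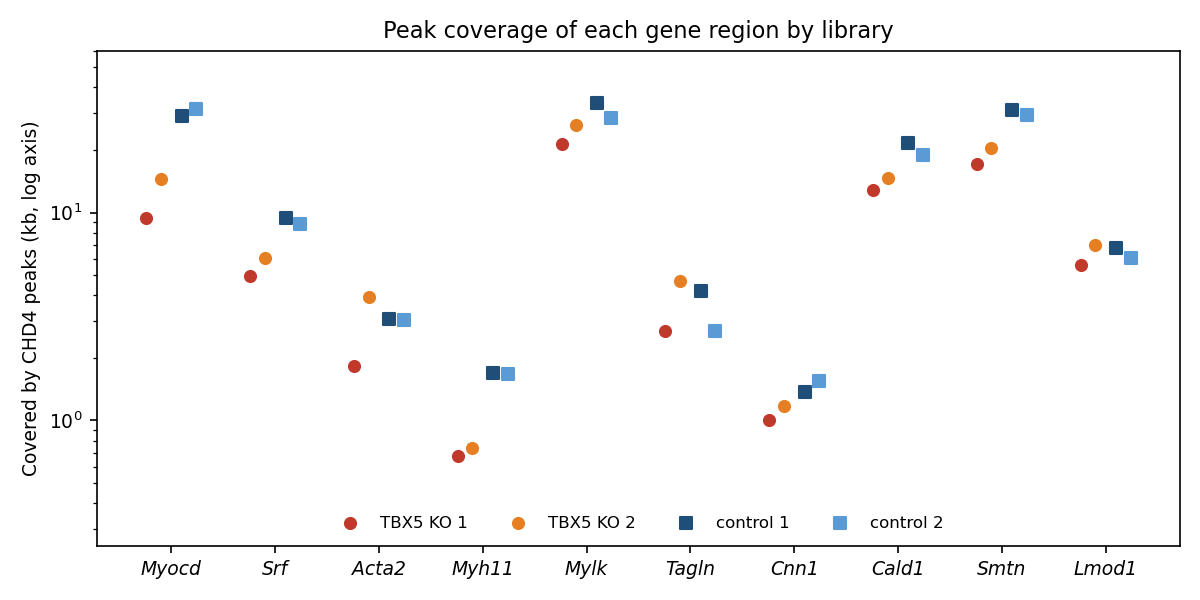
Kilobases covered by CHD4 peaks (vertical log axis) in each gene region, 1 point per library, with TBX5 KO as circles left of control as squares. At Myocd the TBX5 KO points lie at 9.4 and 14.5 kb, below 29.1 and 31.5 kb in control, while at Acta2, Tagln and Lmod1 the points of the groups overlap.

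Myocd (chromosome 11, 65173608 to 65269989, mm10) had the most sites per 10 kb of the 10 regions, 2.92, and 34 sites in all. This counts sites and not the length they cover. Peaks covered a larger share of the region at Smtn and at Srf than at Myocd in every library. The peaks of Myocd numbered 13 and 18 in TBX5 KO and 29 and 31 in control. They covered 9.4 and 14.5 kb in TBX5 KO, and 29.1 and 31.5 kb in control. The mean coverage was 11.9 ± 3.58 kb in TBX5 KO and 30.3 ± 1.68 kb in control (SD, n = 2 each), a ratio of 0.393, the lowest of the 10. Both TBX5 KO libraries were below both control libraries. In lists of equal length the order was the same, with 9.4 and 13.0 kb in TBX5 KO and 21.1 and 24.7 kb in control. Of all gene regions covered in control, 15.5% had a ratio as low or lower.

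The 9 control-only sites of Myocd all lay inside the gene, from 65188573 to 65267551, and 7 of them lay in the stretch from 65234966 to 65267551. Their percentiles in the control lists ran from 1.19 to 56.0, so none was among the strongest peaks. The strongest of them by mean percentile (65265763 to 65267551) lay at percentiles 53.9 and 55.4 in control, with folds of 3.33 and 3.37 over local background as the authors' peak caller gave them. Of the 1410 gene regions with at least 10 sites in both control libraries, 13.7% had a control-only share at or above that of Myocd. In lists of equal length 3 of 11 sites of Myocd were control-only (background 14.8%). At −log10 q of at least 3 the count was 6 of 15 (background 26.4%), and at 5 or more it was 4 of 10 (background 29.1%). With a single control library it was 18 of 29 without control replicate 1 (background 36.9%) and 15 of 29 without control replicate 2 (background 40.6%).

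The sites of Myocd called in all 4 libraries were of lower mean rank in TBX5 KO, and most were narrower. The width that a site spanned in a library was the summed length of its peaks, without the gaps between them. To compare rank, the 38043 sites called in all 4 libraries were ranked within each library by −log10 p. All 4 rankings thus have the same length, with 100 the strongest. A rank gives the place of a site among these common sites, so it can rise without a higher fold. All 7 such sites of Myocd had a lower mean rank in TBX5 KO, by 12.0 to 42.2 percentile points (median difference −21.8). The largest and the smallest drop came from 65214693 to 65216377 and from 65261990 to 65265072. In both, the peaks of the 2 TBX5 KO libraries did not overlap each other and were joined only through wider control peaks. Their TBX5 KO values thus belong to different positions. In 5 of the 7 both TBX5 KO ranks were below both control ranks, with a background of 22.1% of sites in that order. In 6 of the 7 both TBX5 KO widths were below both control widths, with a background of 57.3%. Of the 2109 gene regions with at least 5 such sites, 2.56% had a lower mean rank at every site, and 1.47% had a median difference at or below that of Myocd. These 2 shares were computed because Myocd had stood out among the 10 genes, and they test nothing. Without TBX5 KO replicate 2 the median difference was −14.2, and 6 of the 7 sites were lower.

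The strongest Myocd site (65203997 to 65211623) lay inside the gene. It spanned 4199 and 5610 bp of peaks in TBX5 KO, and 6667 and 7012 bp in control. Its rank was 75.1 and 70.2 in TBX5 KO, and 87.7 and 90.8 in control, without overlap. The site over the upper-coordinate end of the gene (65268151 to 65272050) spanned 1305 and 2663 bp in TBX5 KO, and 3702 and 3900 bp in control. Its rank was 35.0 and 60.5 in TBX5 KO, and 75.5 and 63.9 in control. The largest drop in rank was at 65214693 to 65216377, with ranks of 29.4 and 0.336 in TBX5 KO, and 44.3 and 69.8 in control. There the peaks of the TBX5 KO libraries lay apart within the site, so their ranks are not of the same position. At all 3 sites the replicates of at least 1 group differed by over 10 percentile points or by over 1000 bp, and the groups still did not overlap.

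**Figure D3:**
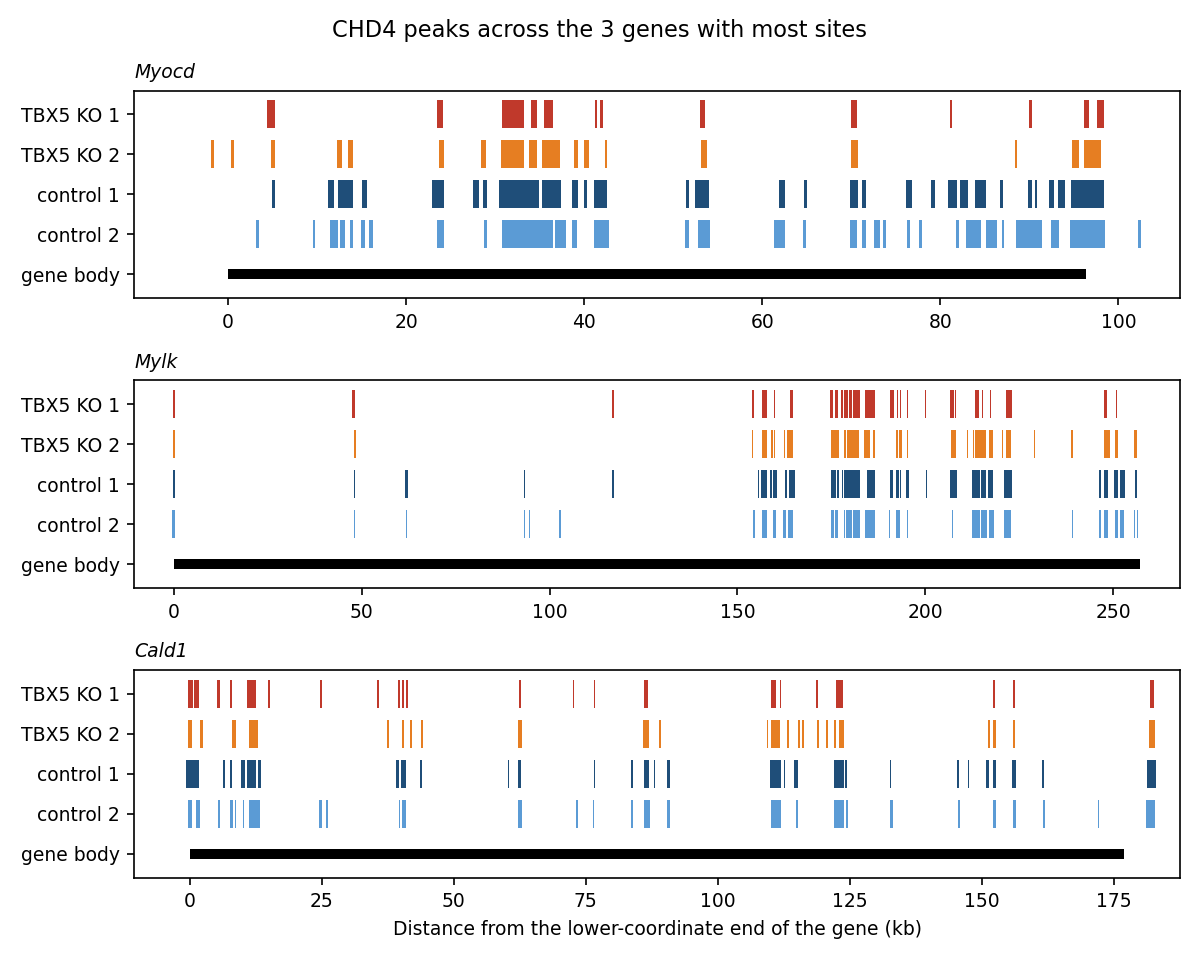
Position of every CHD4 peak at Myocd, Mylk and Cald1, in kilobases from the lower-coordinate end of the gene, with 1 row per library and the gene body as a black bar. At Myocd the control rows hold 29 and 31 peaks and the TBX5 KO rows 13 and 18, and at Mylk the 4 rows hold 27 to 32 peaks each.

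Srf (chromosome 17, 46546838 to 46558267), which encodes the factor that myocardin binds, had 3 sites, 2 of them called in all 4 libraries and 1 in both control libraries and TBX5 KO replicate 2. All 3 also lay within 10 kb of Cul9. The strongest site (46550521 to 46557265) contained the promoter window with both CArG boxes. It spanned 4172 and 4295 bp in TBX5 KO, and 6020 and 6666 bp in control. Its rank was 95.8 and 95.6 in TBX5 KO, and 96.1 and 94.5 in control. This site was thus narrower in both TBX5 KO libraries while its place among the strongest common sites overlapped between the groups. Coverage of the Srf region was 4.97 and 6.04 kb in TBX5 KO, and 9.45 and 8.77 kb in control.

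Acta2 (chromosome 19, 34240336 to 34255585) encodes smooth muscle alpha-actin. It had 10 sites, 4 of them called in all 4 libraries, 3 in 1 TBX5 KO library alone and 0 control-only. Its peaks numbered 5 and 8 in TBX5 KO and 6 and 6 in control, and covered 1.82 and 3.94 kb in TBX5 KO and 3.06 and 3.04 kb in control. The TBX5 KO values lay on both sides of control. The site over the promoter window (34254946 to 34256059) spanned 232 and 878 bp in TBX5 KO, and 766 and 681 bp in control. Its rank was 22.2 and 40.3 in TBX5 KO, and 11.7 and 0.272 in control, so the rank was higher in both TBX5 KO libraries. Its fold was 2.44 and 3.12 in TBX5 KO, and 3.19 and 1.91 in control, which overlapped. The strongest site in control (34265345 to 34266358), outside the gene, went the other way in rank, with 33.4 and 38.6 in TBX5 KO, and 45.4 and 51.7 in control.

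Myh11 (chromosome 16, 14194527 to 14292188) encodes the smooth muscle myosin heavy chain. It was the most sparsely occupied of the 10 regions, with 6 sites, or 0.51 per 10 kb, and none called in all 4 libraries. Peaks numbered 2 and 2 in TBX5 KO and 4 and 4 in control, and covered 0.677 and 0.737 kb in TBX5 KO and 1.69 and 1.68 kb in control. Its control-only site (14265251 to 14265948) spanned 698 and 620 bp in control, at percentiles 79.8 and 61.1 of the control lists. It was the strongest control-only site of the 10 genes, and in its class of control rank 8.64% of sites were control-only genome-wide. The site with the highest mean control percentile (14253600 to 14254079) was called in TBX5 KO replicate 1 and both control libraries. The site near the upper-coordinate end (14291211 to 14291704), also within 10 kb of Cep20, was called in both TBX5 KO libraries and control replicate 1.

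Mylk (chromosome 16, 34745199 to 35002436) encodes the kinase that phosphorylates the regulatory light chain of myosin and starts smooth muscle contraction. Of its 35 sites, 16 were called in all 4 libraries and 4 were control-only. Peaks numbered 27 and 28 in TBX5 KO and 31 and 32 in control, and covered 21.4 and 26.4 kb in TBX5 KO and 33.5 and 28.4 kb in control. The ratio was 0.772, with groups that did not overlap but lay close. The strongest site (34923555 to 34927836), inside the gene, spanned 3687 and 3746 bp in TBX5 KO, and 4247 and 3391 bp in control. Its rank was 86.1 and 76.3 in TBX5 KO, and 90.3 and 92.9 in control. The strongest control-only site of the gene (34996978 to 34998363) lay at percentiles 68.5 and 53.3 of the control lists.

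Ranks at Mylk moved in both directions. Of its 16 common sites, 4 had both TBX5 KO ranks below both control ranks and 6 had both above, with a background of 25.2% for the second order. The site over the lower-coordinate end of the gene (34744813 to 34745620) had ranks of 83.3 and 87.9 in TBX5 KO, and 78.9 and 66.3 in control. The promoter window of Mylk in the RefSeq table lies inside the gene body (34784700 to 34784999), and its nearest site was 7665 bp away. The 2 outermost differences were a gain of 26.4 points at 34992673 to 34994479 and a drop of 24.5 points at 34904614 to 34905608. The median rank difference of the 16 sites was 2.65 points.

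Tagln (chromosome 9, 45929628 to 45936058) encodes transgelin, also called SM22-alpha, an actin-binding protein. It had 5 sites, all shared with the regions of Pcsk7 or Sidt2, of which 2 were called in all 4 libraries and 0 were control-only. Peaks covered 2.68 and 4.68 kb in TBX5 KO, and 4.19 and 2.68 kb in control, a ratio of 1.07. Both common sites ranked higher in both TBX5 KO libraries. At the site over the upper-coordinate end (45935477 to 45937376) the ranks were 61.3 and 61.9 in TBX5 KO, and 41.5 and 11.9 in control. At the site inside the gene (45931624 to 45933534) they were 57.7 and 36.0 in TBX5 KO, and 27.8 and 10.9 in control. The folds overlapped between the groups at both sites. At the upper-coordinate end they were 3.32 and 3.89 in TBX5 KO, and 4.77 and 2.71 in control. Inside the gene they were 3.68 and 2.87 in TBX5 KO, and 3.99 and 2.93 in control. A higher mean rank at every site was found in 23.5% of the 9350 gene regions with at least 2 common sites. Another site, just outside the gene (45937597 to 45938690), was called in both TBX5 KO libraries and control replicate 1.

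Cnn1 (chromosome 9, 22099221 to 22109221) encodes calponin 1, an actin-binding inhibitor of the myosin ATPase. It had 3 sites, none inside the gene, and no library had a peak over its promoter window, whose nearest site was 2584 bp away. The 2 common sites lay on either side of the gene and within 10 kb of Ecsit or of Elof1 and Acp5. The stronger (22116783 to 22117572) had ranks of 69.2 and 73.1 in TBX5 KO, and 75.3 and 63.2 in control, which overlapped. At the other (22095838 to 22096419) the replicates differed widely, with ranks of 8.44 and 67.7 in TBX5 KO, and 33.0 and 10.9 in control.

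Cald1 (chromosome 6, 34598495 to 34775469) had the most sites, 46, of which 11 were called in all 4 libraries, 8 were control-only and 12 were called in 1 TBX5 KO library alone. Peaks numbered 22 and 24 in TBX5 KO and 29 and 28 in control, and covered 12.8 and 14.7 kb in TBX5 KO and 21.5 and 18.9 kb in control. The mean was 13.8 ± 1.38 kb in TBX5 KO and 20.2 ± 1.80 kb in control (SD, n = 2 each), and the groups did not overlap. Both promoter windows of Cald1 lay in sites called in all 4 libraries. The site at the first window (34597688 to 34600458) had ranks of 62.5 and 67.5 in TBX5 KO, and 50.3 and 34.8 in control. The site at the second, 111 kb into the gene (34708425 to 34710532), had ranks of 37.5 and 47.8 in TBX5 KO, and 59.8 and 47.3 in control. Only at the first did both TBX5 KO ranks lie above both control ranks.

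The strongest Cald1 site in control (34609268 to 34611931) spanned 1679 and 1772 bp in TBX5 KO, and 2087 and 1974 bp in control. Its rank was 77.1 and 68.0 in TBX5 KO, and 83.1 and 79.6 in control. The 8 control-only sites all lay inside the gene, the strongest of them (34688832 to 34689417) at percentiles 60.8 and 48.8 of the control lists. The TBX5 KO-only site (34717026 to 34717669) spanned 471 and 436 bp, with folds of 2.31 and 2.36. In lists of equal length 2 of the 12 Cald1 sites in both control libraries were control-only (background 14.8%), and 1 site was TBX5 KO-only. The control-only sites were 4 of 15 at −log10 q of at least 3 (background 26.4%) and 1 of 11 at 5 or more (background 29.1%). They were 11 of 27 without control replicate 1 (background 36.9%) and 14 of 29 without control replicate 2 (background 40.6%). The control-only share of Cald1 was met or passed by 22.2% of the gene regions with at least 10 sites in both control libraries.

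Smtn (chromosome 11, 3517522 to 3539292), which encodes smoothelin, a cytoskeletal protein of contractile smooth muscle, carried the broadest CHD4 occupancy. Its 9 sites included 5 called in all 4 libraries and 1 control-only site outside the gene (3548037 to 3548344). Peaks covered 41.1% and 48.7% of the region in TBX5 KO, and 74.9% and 70.7% in control. In kilobases this was 17.2 and 20.4 in TBX5 KO, and 31.3 and 29.5 in control. The region was covered less in TBX5 KO, yet it held more peaks there, 17 and 17 in TBX5 KO and 13 and 14 in control. The mean peak length in the region was 1010 and 1200 bp in TBX5 KO, and 2410 and 2110 bp in control.

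The strongest Smtn site (3532180 to 3543721), which contained the promoter window, consisted of 6 and 6 peaks in TBX5 KO, and 2 and 4 peaks in control. The summed length of those peaks was 6737 and 8568 bp in TBX5 KO, and 11281 and 9240 bp in control. Counted in kilobases from the lower-coordinate end, they ran from 17.069 to 26.061 and from 14.658 to 26.14 in TBX5 KO. In control they ran from 14.666 to 26.199 and from 14.959 to 26.062. In TBX5 KO replicate 2 the peaks were thus broken up over about the same stretch as in control. The rank of the site was 95.6 and 96.9 in TBX5 KO, and 95.5 and 97.8 in control, which overlapped. The site over the lower-coordinate end (3513148 to 3523208) spanned 5996 and 6577 bp in TBX5 KO, and 10036 and 9148 bp in control, with ranks of 94.2 and 93.3 in TBX5 KO and 93.1 and 96.5 in control. Between them, the site at 3523998 to 3532163 had ranks of 31.3 and 29.4 in TBX5 KO, and 47.5 and 63.0 in control. The sites at the ends of Smtn thus overlapped in rank between the groups and had a smaller summed peak length in TBX5 KO. The site between them was lower there both in rank and in summed length.

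**Figure D4:**
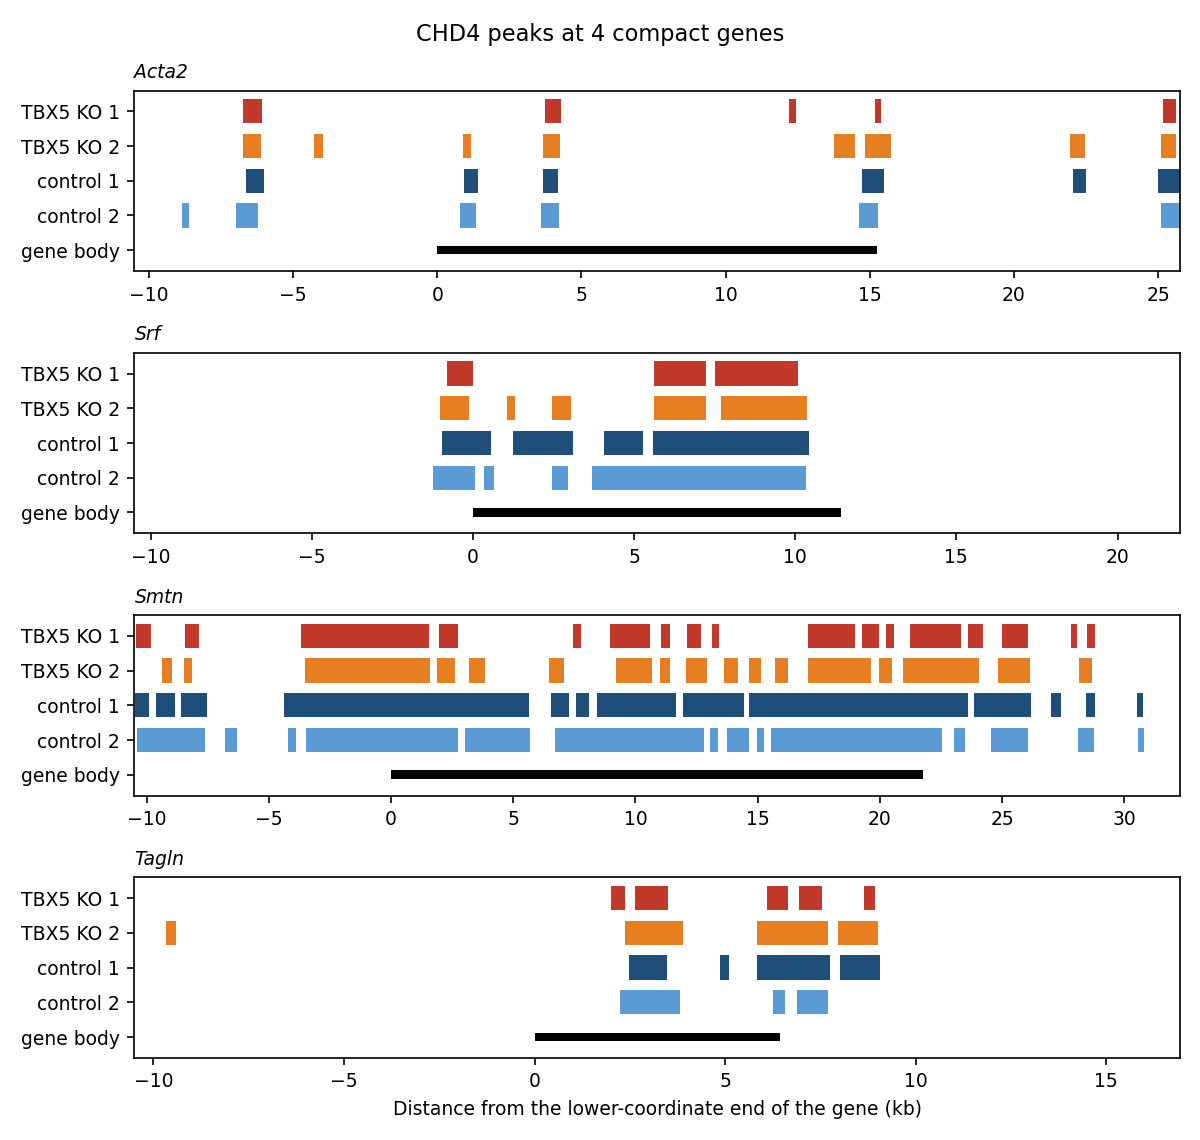
Position of every CHD4 peak at Acta2, Srf, Smtn and Tagln, in kilobases from the lower-coordinate end of the gene, with 1 row per library and the gene body as a black bar. At Smtn the control rows show long peaks (13 and 14) where the TBX5 KO rows show more and shorter ones (17 and 17).

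Lmod1 (chromosome 1, 135324813 to 135368065) encodes leiomodin 1, which nucleates actin filaments in smooth muscle. It had 9 sites, 6 of them called in all 4 libraries and 0 control-only, and 5 also lay within 10 kb of Shisa4 or Ipo9. Peaks numbered 8 and 8 in TBX5 KO and 6 and 7 in control, and covered 5.58 and 6.97 kb in TBX5 KO and 6.74 and 6.02 kb in control, which overlapped. With Smtn it was 1 of 2 genes of the 10 with more peaks in both TBX5 KO libraries, with a background of 2.49%. Fewer peaks in both TBX5 KO libraries were found at 4 of the 10 (Myocd, Myh11, Mylk and Cald1), with a background of 36.4%. In lists of equal length the peak numbers no longer ran that way at Mylk, with 27 and 23 in TBX5 KO and 18 and 23 in control, or at Cald1, with 22 and 20 in TBX5 KO and 13 and 18 in control. The strongest Lmod1 site in control (135374112 to 135375914), outside the gene, had ranks of 51.6 and 83.6 in TBX5 KO, and 56.3 and 58.3 in control. The promoter window of Lmod1 lay 10084 bp from the nearest site, which was beyond the 10 kb around the gene and is not among the 9.

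Over the 55 common sites of the 10 genes, the median width was 799 and 953 bp in TBX5 KO, and 1367 and 1190 bp in control (exact permutation test over the 4 library medians, p = 0.333). Over all 38043 common sites it was 786 and 908 bp in TBX5 KO, and 1257 and 1142 bp in control. Both TBX5 KO widths were below both control widths at 28 of the 55 sites (50.9%, background 57.3%) and above both at 1 (background 3.3%). The median ratio of widths was 0.767, against 0.747 over all common sites. Ranks went both ways, with both TBX5 KO ranks below both control ranks at 16 of the 55 (29.1%, background 22.1%) and above both at 15 (27.3%, background 25.2%). The median rank was 40.5 and 46.9 in TBX5 KO, and 44.3 and 47.3 in control (exact permutation p = 0.667). Over the 10 genes together, width and rank were close to those of common sites in general. The genes differed among themselves in rank, with Myocd at one end (median difference −21.8, 7 sites) and Tagln at the other (31.2, 2 sites). At both Tagln sites the folds overlapped between the groups.

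**Figure D5:**
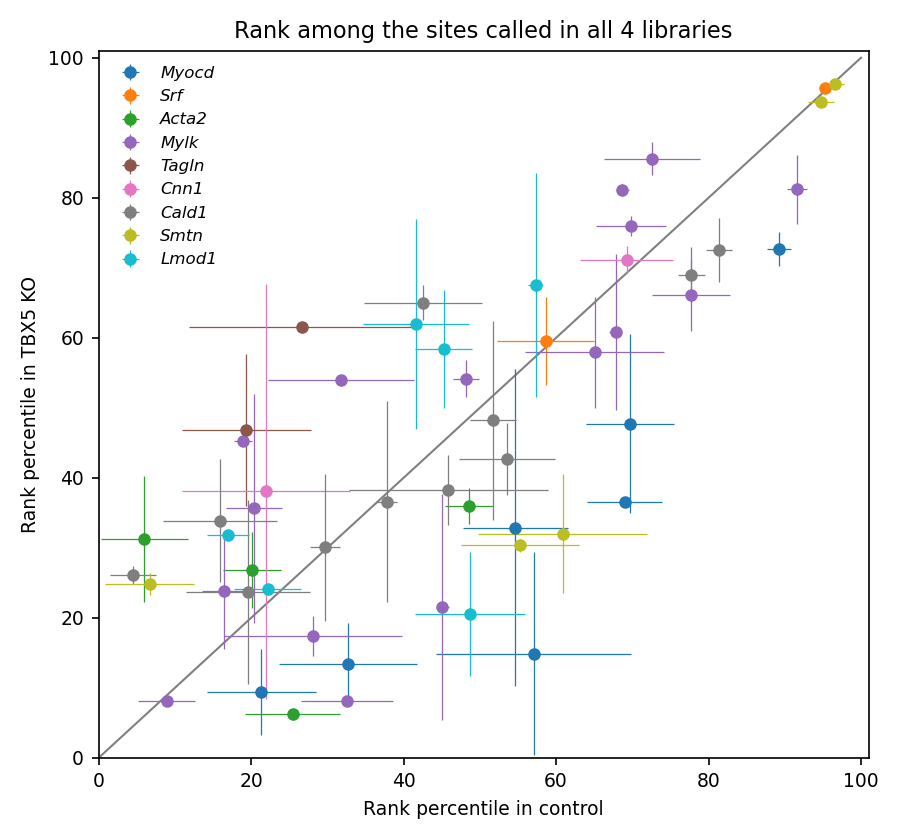
Rank percentile in TBX5 KO (vertical) against control (horizontal) of the 55 member sites called in all 4 libraries, each point the mean of 2 libraries and each bar the range between them. The 7 Myocd points lie below the diagonal and the 2 Tagln points above it, while the 2 strongest Smtn sites and the strongest Srf site lie near it at the top.

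Other genes of the pathway were examined as lists chosen from general knowledge. At 24 further genes of the contractile apparatus and its regulation, 75 of 304 sites in both control libraries were control-only (24.7%, background 24.9%) and 168 were called in all 4 libraries (55.3%, background 55.8%). Control-only sites were 16 of 50 at Lpp, which encodes a focal adhesion LIM protein, and 16 of 42 at Ppp1r12b, which encodes a targeting subunit of myosin phosphatase. Lpp and Synpo2, which encodes an actin-binding protein of the Z-disc, each held 20 sites called in all 4 libraries. At 12 of the 24 genes there was at least 1 control-only site, and Kcnmb1 had no site in any library.

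At 15 cofactors and regulators of serum response factor, 40 of 128 sites were control-only (31.2%, background 24.9%) and 66 were called in all 4 libraries (51.6%, background 55.8%). Fhl2, a LIM protein gene, held 11 of 25, Rock2, a gene of a cytoskeletal kinase, 7 of 12, and Prkg1, which encodes the cGMP-dependent kinase, 6 of 16. The myocardin-related factor genes Mrtfa and Mrtfb held 3 of 15 and 1 of 15, with 9 sites called in all 4 libraries at each, and Fhl2 held 11 such sites. At 10 immediate early target genes, 3 of 32 sites were control-only (9.38%, background 24.9%), 1 each at Fosb, Junb and Ier2. Of the 32, 27 were called in all 4 libraries (84.4%, background 55.8%), with 6 at Fosb, 4 at Mcl1 and 3 each at Fos and Junb. At 12 sarcomere genes, 54 of 140 sites were control-only (38.6%, background 24.9%), among them 13 of 39 at Ttn and 11 of 26 at Actn2. Of the 140, 57 were called in all 4 libraries (40.7%, background 55.8%), among them 18 at Ttn and 10 at Ldb3, with 4 each at Actn2, Mybpc3, Tcap and Tnni3. Beside these, the 10 smooth muscle genes held 25.8%. These shares were not tested against each other.

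Markers of the cell types of the atria were described in the same way, since the label gives a mixed tissue, against the same background of 24.9% control-only. Smooth muscle markers (Acta2, Tagln, Cnn1 and Myh11) held 1 control-only site of 11 (9.09%). They are 4 of the 10 genes described here and held 11 of the 89 sites called in both control libraries. By strength class, 1.41 control-only sites were expected at Acta2, 0.494 at Tagln, 0.267 at Cnn1 and 0.173 at Myh11. The 1 observed lay at Myh11. Fibroblast markers held 2 of 30 (6.67%), endothelial markers 8 of 48 (16.7%) and pericyte markers 3 of 16 (18.8%). Atrial cardiomyocyte markers held 10 of 17 (58.8%), of which 9 of 11 lay at Bmp10. The background of sites called in all 4 libraries was 55.8%. Such sites were 8 of 11 at smooth muscle (72.7%), 16 of 30 at fibroblast (53.3%) and 29 of 48 at endothelial markers (60.4%). They were 9 of 16 at pericyte (56.2%) and 4 of 17 at atrial cardiomyocyte markers (23.5%). Which cells gave the signal at the smooth muscle genes was not tested.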

How the data were processed

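The labels list 4 CHD4 ChIP and 4 input libraries of frozen atria. One peak list per ChIP library was used, and the inputs were not analysed on their own. The submitters' processing notes name MACS2, DiffBind and build mm10, while an aligner or a read filter is not given in the sources used here. The deposited fold is the authors' ratio of a peak to its local background. The −log10 p and −log10 q values are those of the authors' peak caller, with a lowest −log10 q of 1.3 to 1.31, a q of 0.05. The deposited score is 10 times −log10 q without its decimals and was not used. The lists give no read totals, so the depth is unknown. They hold 61173 and 69557 peaks in TBX5 KO and 99924 and 91520 in control, and a site without a call may be bound below the threshold.

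Peaks sharing 1 bp or more were merged into sites. Gene bodies (21887 protein-coding genes) and promoter windows were taken from RefSeq, assembly GRCm38.p6. The ranking, counts and exact permutation tests were made in Python 3.11.15 with pandas 2.3.3 and SciPy 1.17.1, after a check on simulated peaks. Sites were described by counts beside the genome-wide share, without a test over sites. All 10 genes are named, with their control-only sites and strongest site, and of each further list up to 3 genes with most control-only sites and up to 3 with most sites called in all 4 libraries, more where tied; some genes that this rule names are not reported here. The alternatives tried were stricter q, lists of equal length, other merging, other gene windows, each library left out, a replicate block and exchanged groups. Leaving out libraries for width and rank, the expectation by strength class and the relaxed CArG form were added after seeing the data. Kcnmb1 and Bmp10 were named after their values were seen. The members and lists were chosen with earlier results of these data known.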

Additional observations from a re-analysis of the deposited data

How the results depend on the processing

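The 23 control-only sites became 12 at −log10 q of at least 5 (19.7%, background 29.1%), 8 in lists of equal length (12.9%, background 14.8%) and between 28 and 45 when 1 library was left out; fewer libraries make the pattern easier to meet. Without control replicate 1 there were 45 control-only sites (37.2%, background 36.9%), and without control replicate 2 there were 41 (32.8%, background 40.6%). The single TBX5 KO-only site became 3 of 58 in lists of equal length (5.17%, background 5.89%), 2 of 61 when merging needed 50% overlap (3.28%, background 1.99%), 2 of 94 with 50 kb around genes (2.13%, background 1.91%) and 8 of 60 by summits within 250 bp (13.3%, background 8.08%). It ranged between 2 and 20 when 1 library was left out, with 20 of 92 without TBX5 KO replicate 1 (21.7%, background 11.7%). Sites called in all 4 libraries were 34 of 61 at −log10 q of at least 5 (55.7%, background 52.3%), 88 of 139 with 50 kb (63.3%, background 55.8%) and 50 of 62 in lists of equal length (80.6%, background 69.6%). With the groups exchanged, as the genotype labels state them, there were 1 control-only and 23 TBX5 KO-only sites, and the differences became 20 peaks and 48.5 kb.

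The difference of −20 peaks between TBX5 KO and control became 20 in lists of equal length, while the coverage difference was −48.5 kb and −28.8 kb. With the replicate number as a block both differences stayed at −20 peaks and −48.5 kb, with an exact paired p of 0.5, the smallest that 2 pairs allow. Deviations of same-numbered libraries correlated at −0.02 for log2 width and −0.07 for log2 fold over common sites, so the numbers are not shown to pair the samples. The median rank difference of the 55 sites, −0.431, ranged from −2.63 to 2.79 when 1 library was left out. That of Myocd stayed between −28.2 and −14.2, and that of Tagln between 19.6 and 42.8. Of 130 recomputed counts of control-only sites per gene, 93 stayed within 1.5 times and 37 did not. A count of 0 that stayed at 0 was among the 93. The 130 include the exchanged groups, which only swap the labels, and settings without 1 library, where the pattern is easier to meet. What else moved the counts was not tested. The lists limit what can be seen to called peaks.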
